A study of Mus musculus with 8 samples.

Results

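The transcripts described here are those of the mouse proteasome, its activators and its assembly chaperones, as carried in an ELAVL1 pull-down from gonadotrope cells. The members were all array probes whose gene symbol began with Psma, Psmb, Psmc, Psmd, Psme, Psmf or Psmg followed by a digit. That pattern took 45 of the 16593 gene symbols on the array, with 67 of its 25697 probes. Of these symbols 43, with 64 probes, encode subunits, activators or assembly chaperones. The remaining symbols, Psmc3ip and Psme3ip1, share the letters but encode no subunit and were kept apart, with 3 probes. Psma8, Psmb11, Psmd3, Psme2b, Psmf1 and Psmg4 were not analysed here.

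The study asked which messenger RNAs bound by ELAVL1 change when gonadotrope cells receive gonadotropin-releasing hormone (GnRH). LbetaT2 cells, an immortalised mouse line of the gonadotrope lineage of the pituitary, were kept without serum for 16 h and then given GnRH or vehicle for 30 min. Both groups went through the same pull-down, in which antibody against ELAVL1 on protein G beads recovered the protein and its RNA from lysate already cleared with beads and IgG. The recovered RNA was hybridised to Illumina mouse bead arrays, 4 from GnRH-treated and 4 from vehicle-treated cells. All arrays carry RNA of 1 cell line after the antibody step, and no array of total or IgG-bound RNA was analysed here, so a signal is the amount in the pull-down and the expression of a gene and its binding to ELAVL1 cannot be told apart. Fewer cells and less RNA per cell cannot be told apart either. Nothing in the labels ties the replicates to separate cultures, and each p-value is therefore set against a spread that may be technical.

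The proteasome is the protease that degrades proteins tagged with ubiquitin. Its barrel-shaped core is built from rings of alpha subunits, which form the gate, and rings of beta subunits, of which Psmb5, Psmb6 and Psmb7 carry the proteolytic sites. The regulatory particle has a base, whose ATPases unfold the substrate, and a lid, which removes the ubiquitin chain, while the activators of the Psme family can take the place of the regulatory particle. ELAVL1, also called HuR, binds messenger RNA at stretches rich in uridine or in adenosine and uridine. In gonadotropes GnRH acts through its receptor to raise early response genes and, later, the gonadotropin subunits.

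A probe was taken as above background on an array where the deposited detection p was below 0.05. Between 10802 and 11663 probes passed on each array, and the median raw signal ranged from 33.4 to 42.1. Vehicle array 4 was the dimmest, with the lowest median and the fewest probes passing. Its highest raw signal was 8423, where the other arrays reached 12975 to 13864. Gnrhr, the GnRH receptor, had the brightest probe on every array. Cga, the common gonadotropin subunit, averaged 12.07 with GnRH and 11.60 with vehicle on the log2 scale of normalized signal. Its groups overlapped, and it did not pass the limma test after adjustment (limma, unadjusted p = 0.0136). Lhb and Fshb, the defining gonadotropin subunits, were not above background on any array. Of 5 markers of other pituitary lineages and 3 of blood cells none was above background on any array, while among 5 stromal and endothelial markers Pecam1 and Cdh5 were above it on all 8 arrays and the collagen genes on none. Egr1, an early response gene, rose by 3.80 ± 0.19 (SE) on the log2 scale (limma adjusted p = 2.57e-06).

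Proteasome transcripts were present in the pull-down from all 8 arrays. Of the 64 probes for subunits, activators and chaperones, 48 were above background on every array and 7 on none. By gene, 36 of 43 had at least 1 probe above background on all arrays, and Psma1 and Psma6, both alpha-ring subunits, had none on any array. Over all 25697 probes the share above background on every array was 35.9%. Per array, between 55 and 58 of the 67 matched probes were above background, namely 55 to 57 with GnRH and 55 to 58 with vehicle, so the counts overlapped.

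**Figure D1:**
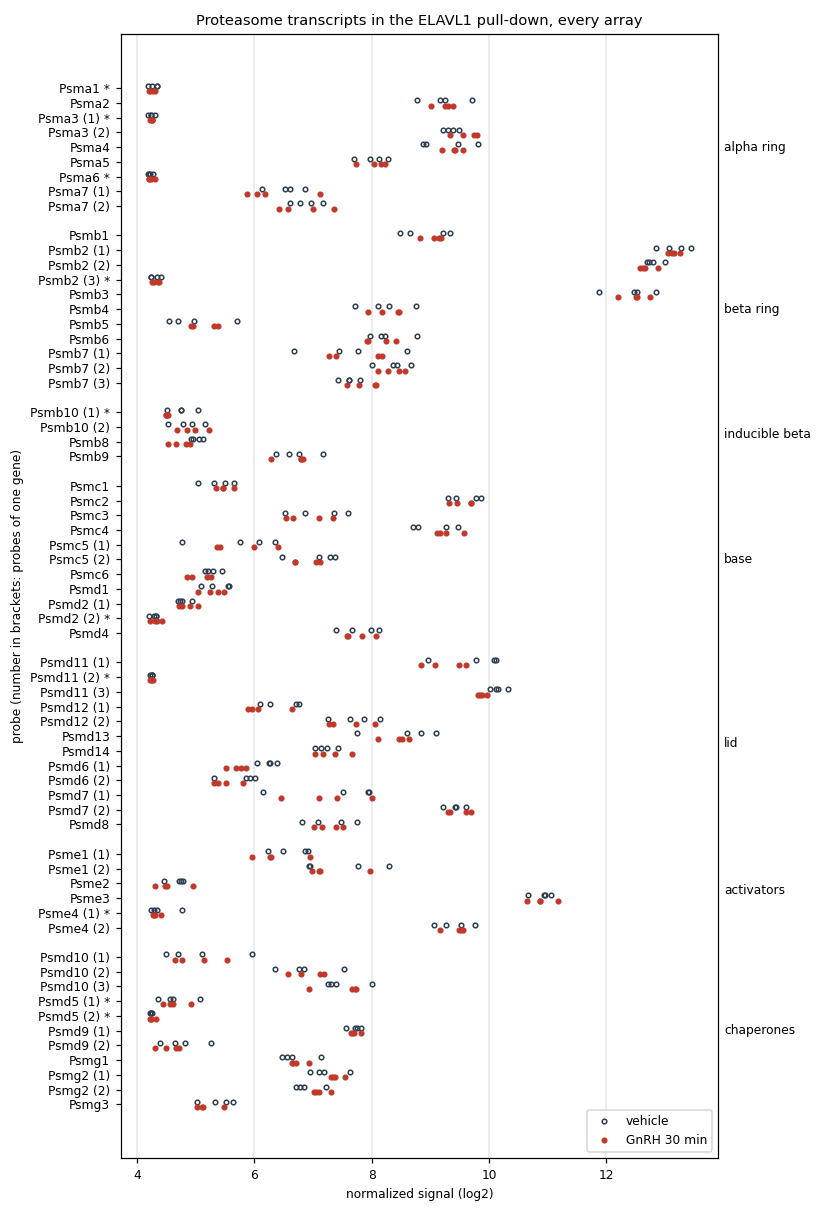
Normalized signal (log2, horizontal axis) of every probe for a proteasome subunit, activator or chaperone on each of 8 arrays, with open circles for 4 vehicle arrays and filled circles for 4 GnRH arrays; an asterisk marks probes too dim to be tested, and bracketed numbers separate probes of 1 gene. The circles of the groups overlap for all tested probes but those of Psmd6 (1), Psmd11 (3) and Psmb8, and Psmb2 and Psmb3 have the brightest probes.

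Probes differ in how they hybridise, so their brightness does not rank transcripts, and the ranges are given as a description with no test. The mean normalized signal of the 16 tested core probes lay between 5.06 and 13.15 (log2) around a median of 8.30. For the 10 base probes the range was 4.82 to 9.57 and the median 6.37. The 11 lid probes lay between 5.64 and 10.02 (median 7.32) and the 5 activator probes between 4.62 and 10.90 (median 7.39). These ranges overlapped throughout. Within the core, Psmb2 and Psmb3, structural beta-ring subunits, had the brightest probes, at 13.15 ± 0.09 and 12.50 ± 0.22 with GnRH and 13.16 ± 0.26 and 12.43 ± 0.40 with vehicle (SD, n = 4). Of the 3 inducible beta subunits that replace the catalytic ones in the immunoproteasome, Psmb8 and Psmb10 had tested probes at the dim end, at 4.88 and 4.89. Psmb9 stood at 6.70, within the range of the core probes and above the base median.

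To compare GnRH with vehicle, 57 of the 67 matched probes were bright enough to be tested (above background on at least 4 of 8 arrays), of which 54, from 40 genes, belonged to subunits, activators and chaperones. None of the 57 passed the limma test in either direction at an adjusted p of 0.05, against 0.265% of the 11318 tested probes that passed as higher and 0% as lower. At an unadjusted p of 0.05, 1 of 57 passed, against 2.91% of all tested probes. The lowest adjusted p of a member was 0.660 (limma), for Psmd6. In 3 probes, for Psmd6, Psmd11 and Psmb8, all 4 GnRH values lay below all 4 vehicle values, where 0.618% of all tested probes showed that order. None showed the opposite order, against 1.53% of all tested probes.

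The absence of calls came with intervals of limited width. Over the 54 subunit, activator and chaperone probes the standard error of the log2 change had a median of 0.19, and over all tested probes 0.18. For 52 of the 54 probes (96.3%) the 95% confidence interval of the change stayed within a 2-fold difference in either direction, against 93.9% of all tested probes. Within a 1.5-fold difference the figures were 30 probes (55.6%) and 58.6%. For the lid alone, 9 of 11 probes (81.8%) stayed within 2-fold and 4 (36.4%) within 1.5-fold. These were the lowest shares of the role groups. The 54 changes lay between -0.52 and 0.26 on the log2 scale around a median of -0.015, and the median over all tested probes was -0.0080. Positive changes numbered 23 and negative ones 31, against 51.9% negative among all tested probes. The size of the change, regardless of sign, had a median of 0.12 in both sets.

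**Figure D2:**
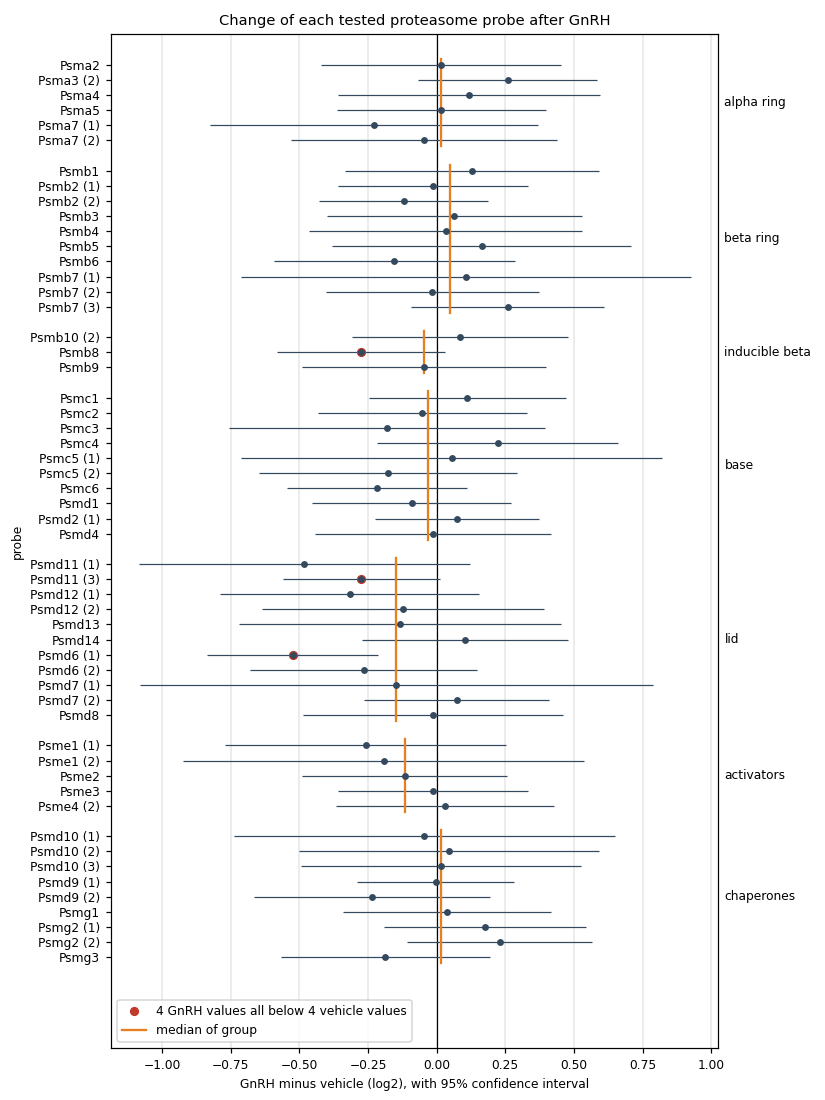
Fitted difference between GnRH and vehicle (log2, horizontal axis) with its 95% confidence interval for each of 54 tested probes, grouped by role; the vertical bars give the median of each group, and red rims mark probes whose 4 GnRH values all lie below the 4 vehicle values. Psmd6 (1) at -0.52 is the 1 probe whose interval excludes 0, and the lid median lies at -0.15.

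In the alpha ring, which gates the core, none of the 6 tested probes passed the limma test, and their median was 0.016, with 4 positive and 2 negative values. Psma3 stood at 9.75, 9.79, 9.56 and 9.34 on GnRH arrays 1 to 4 and at 9.39, 9.49, 9.30 and 9.22 on vehicle arrays 1 to 4 (normalized signal, log2, as in all values per array that follow). Its highest GnRH values exceeded every vehicle value, but GnRH array 4 lay within the vehicle range, and the difference was 0.26 ± 0.15 (SE). Psma7 went the other way at -0.23 ± 0.27, with GnRH values of 6.04, 5.87, 7.12 and 6.19 and vehicle values of 6.62, 6.87, 6.52 and 6.12. GnRH array 3 gave the highest Psma7 value of all 8, and leaving out 1 array gave from -0.50 (without GnRH replicate 3) to -0.08 (without GnRH replicate 2), so the difference rested on single arrays. The other Psma7 probe differed by -0.05 ± 0.22. For Psma2, Psma4 and Psma5 the differences lay between 0.01 and 0.12.

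The beta ring holds the proteolytic sites, and none of its 10 tested probes passed the limma test, with a median of 0.049. Psmb5, the chymotrypsin-like subunit, gave 5.32, 4.96, 4.93 and 5.37 with GnRH and 4.69, 5.71, 4.97 and 4.55 with vehicle. The vehicle values enclosed the GnRH values, and the probe was dim, falling below the background limit on vehicle array 4. The difference was 0.16 ± 0.25, and leaving out 1 array gave from 0.021 (without vehicle replicate 4) to 0.41 (without vehicle replicate 2).

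Psmb6, the caspase-like subunit, gave 7.93, 7.93, 8.41 and 8.24 with GnRH and 8.23, 8.78, 8.15 and 7.98 with vehicle. Vehicle array 2 was the highest, the other values were mixed, and the difference was -0.15 ± 0.20. Psmb7, the trypsin-like subunit, was read by 3 probes, of which the one with the lowest p gave 7.78, 8.06, 8.07 and 7.58 with GnRH and 7.62, 7.79, 7.42 and 7.61 with vehicle, a difference of 0.26 ± 0.16. GnRH arrays 1 and 4 lay inside the vehicle range. The other Psmb7 probes differed by 0.11 ± 0.37 and -0.02 ± 0.18.

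Of the structural beta subunits, Psmb2 had the probe with the lowest p, which gave 12.63, 12.67, 12.89 and 12.57 with GnRH and 12.80, 12.999, 12.73 and 12.70 with vehicle. The groups overlapped through GnRH array 3, and the difference was -0.12 ± 0.14. Scaling arrays to a common median, or leaving them unscaled, turned its sign, to 0.02 and 0.06. The median of all tested probes moved to 0.07 and 0.11 there, so this probe stayed below it. The brighter Psmb2 probe differed by -0.02 ± 0.16. Psmb1, Psmb3 and Psmb4 differed by 0.13 ± 0.21, 0.06 ± 0.21 and 0.03 ± 0.22.

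The inducible beta subunits, which interferon raises in many tissues, were read by 3 tested probes and none passed the limma test. Psmb8, which replaces Psmb5, gave 4.67, 4.53, 4.91 and 4.84 with GnRH and 5.05, 5.13, 4.95 and 4.93 with vehicle. The groups did not overlap, although GnRH array 3 and vehicle array 4 were nearly level, and the probe was dim, with GnRH array 2 below the background limit. The difference was -0.28 ± 0.14 (limma adjusted p = 1.00).

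Psmb9, which replaces Psmb6, gave 6.82, 6.80, 6.80 and 6.29 with GnRH and 6.60, 7.17, 6.76 and 6.36 with vehicle. The groups overlapped, and the difference of -0.05 ± 0.20 became 0.05 with median scaling and 0.09 without scaling between arrays. On these scales the median of all tested probes was 0.07 and 0.11, above the Psmb9 values. Psmb10, which replaces Psmb7, gave 4.99, 4.86, 5.22 and 4.67 with GnRH and 4.53, 5.15, 4.79 and 4.93 with vehicle, with the probe above background on 7 arrays. Those groups overlapped as well (0.08 ± 0.18). A second Psmb10 probe was above background on 3 vehicle arrays and no GnRH array and was too dim to be tested.

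In the base none of the 10 tested probes passed the limma test, and their median was -0.033, with 4 positive and 6 negative values. Psmc6, an ATPase of the ring that unfolds substrates, gave 5.20, 4.95, 5.26 and 4.85 with GnRH and 5.16, 5.45, 5.22 and 5.29 with vehicle, a difference of -0.22 ± 0.15. GnRH arrays 1 and 3 lay within the vehicle range. Psmc4, another ATPase of that ring, gave 9.11, 9.27, 9.58 and 9.16 with GnRH and 8.71, 9.46, 9.26 and 8.80 with vehicle, and the groups overlapped at a difference of 0.22 ± 0.20, which ran from 0.11 to 0.36 when 1 array was left out. Psmd4, a ubiquitin receptor, gave 7.59, 8.08, 7.84 and 7.60 with GnRH and 7.39, 8.13, 7.98 and 7.66 with vehicle. Its groups covered nearly the same range, and the difference of -0.01 ± 0.19 became 0.09 with median scaling and 0.14 without scaling between arrays. All tested probes had medians of 0.07 and 0.11 on these scales. The ATPases Psmc1, Psmc2 and Psmc3 differed by 0.11 ± 0.16, -0.05 ± 0.17 and -0.18 ± 0.26, the probes of the ATPase Psmc5 by -0.18 ± 0.21 and 0.05 ± 0.35, and the large scaffold subunits Psmd1 and Psmd2 by -0.09 ± 0.16 and 0.07 ± 0.14.

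The median change of the lid was -0.15 over 11 tested probes of 7 genes, with 9 negative and 2 positive values, and none of its probes passed the limma test. It was the lowest median of the role groups, but the activators were lower with median scaling (-0.11 against -0.07), without scaling between arrays (-0.06 against -0.03) and without vehicle replicate 2 (-0.09 against -0.08). With only the brightest tested probe of each gene the lid median was -0.12, and 51.9% of all tested probes were negative. Psmd6, a scaffold subunit of the lid also named Rpn7 in yeast, was read by a pair of probes. The first (ILMN_1241910) gave 5.69, 5.52, 5.77 and 5.87 with GnRH and 6.04, 6.38, 6.26 and 6.26 with vehicle. All GnRH values lay below all vehicle values. Group means were 5.71 ± 0.15 and 6.24 ± 0.14 (SD, n = 4), the difference was -0.52 with a 95% interval from -0.84 to -0.21, and the vehicle signal was 1.44 times the GnRH signal. With an unadjusted p of 0.00367 the limma adjusted p over all tested probes was 0.660. The raw signal of this probe was low, from 63.3 to 110, and the size of its difference depended on the processing. It was -0.34 with an offset of 50, -0.34 with the authors' processed values and -0.41 without background correction. With array weights it was -0.60, and leaving out 1 array gave from -0.59 to -0.46. The second Psmd6 probe gave 5.39, 5.80, 5.52 and 5.32 with GnRH and 5.31, 6.01, 5.92 and 5.85 with vehicle. Vehicle array 1 was the lowest of all 8 there, so the groups overlapped, and the difference was -0.27 ± 0.19.

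Psmd11, the lid subunit known as Rpn6 in yeast, which braces the lid against the core, had 3 probes, of which 1 was never above background. One tested probe (ILMN_2888116) gave 9.97, 9.85, 9.89 and 9.81 with GnRH and 10.02, 10.16, 10.12 and 10.32 with vehicle. The groups did not overlap, by a small margin between GnRH array 1 and vehicle array 1, and the difference was -0.27 ± 0.13 (limma, unadjusted p = 0.0590, adjusted p = 1.00). The other tested probe (ILMN_1214057) gave 9.08, 8.84, 9.49 and 9.60 with GnRH and 8.96, 10.08, 10.12 and 9.79 with vehicle. Vehicle array 1 lay inside the GnRH range while the other vehicle arrays were above it, and the difference was -0.48 ± 0.27.

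**Figure D3:**
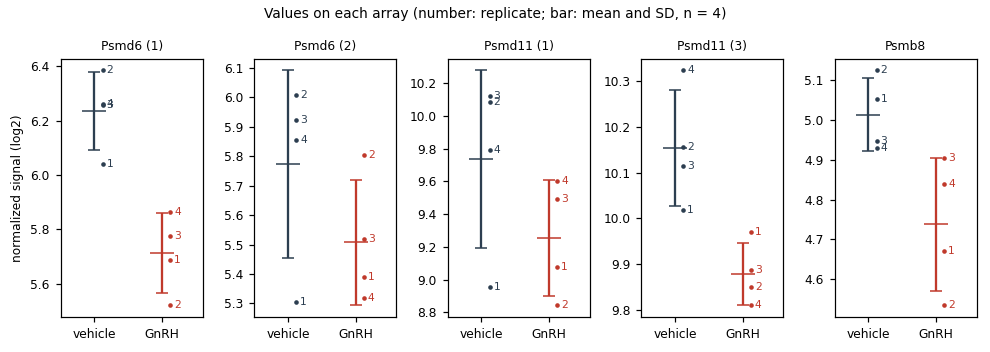
Normalized signal (log2, vertical axes with a separate range per panel) on each of 4 vehicle and 4 GnRH arrays for the tested probes of the lid subunits Psmd6 and Psmd11 and for the inducible subunit Psmb8; numbers are replicates and bars are the mean with SD. Vehicle array 1 gives the lowest vehicle value for all 4 lid probes shown, in Psmd11 (1) it falls among the GnRH values, and in Psmd6 (2) just below the lowest of them.

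None of the remaining lid probes had groups that stood apart. Psmd14, the deubiquitinase that cuts the chain from the substrate, gave 7.66, 7.03, 7.38 and 7.18 with GnRH and 7.43, 7.03, 7.25 and 7.14 with vehicle, an overlapping pair of groups that differed by 0.10 ± 0.17. Both Psmd12 probes were negative, at -0.32 ± 0.21 and -0.12 ± 0.23. Psmd13 and Psmd8 differed by -0.13 ± 0.26 and -0.01 ± 0.21. The probes of Psmd7, the partner of Psmd14, disagreed in sign, at -0.15 ± 0.42 and 0.07 ± 0.15.

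None of the 5 activator probes passed the limma test, and 4 of them were negative (median -0.12). That median was the value of the dim Psme2 probe. The median was -0.25 without GnRH replicate 3 and -0.19 without vehicle replicate 4, and with an offset of 50 it was -0.05. With only the brightest tested probe of each gene it was -0.07. Psme1, a subunit of the activator that interferon raises, gave 6.29, 5.96, 6.95 and 6.27 with GnRH and 6.50, 6.91, 6.86 and 6.23 with vehicle. The groups overlapped, with the highest value on GnRH array 3, and the difference was -0.26 ± 0.23, or -0.45 without GnRH replicate 3 and -0.12 without GnRH replicate 2. Its other probe differed by -0.19 ± 0.33. Psme2, the partner of Psme1 in that activator, gave 4.51, 4.31, 4.96 and 4.47 with GnRH and 4.78, 4.72, 4.76 and 4.46 with vehicle. It was above background on 3 vehicle arrays and 1 GnRH array, and the difference was -0.12 ± 0.17, or -0.25 without GnRH replicate 3 and -0.031 without GnRH replicate 2. Psme3, a nuclear activator, and Psme4, the single-chain activator also called PA200, had brighter probes that differed by -0.01 ± 0.16 and 0.03 ± 0.18.

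Among the assembly chaperones, which help build the particle and leave it before it is complete, 9 of 11 probes were tested. None of them passed the limma test, and the median was 0.016. Psmg2, which helps the alpha ring form, gave 7.10, 7.05, 7.01 and 7.30 with GnRH and 7.21, 6.78, 6.85 and 6.72 with vehicle. Vehicle array 1 lay inside the GnRH range and the other vehicle arrays below it, at a difference of 0.23 ± 0.15. Its second probe differed by 0.18 ± 0.17. Psmd9, a chaperone of the base, gave 4.72, 4.50, 4.67 and 4.30 with GnRH and 5.26, 4.82, 4.40 and 4.65 with vehicle on its dimmer probe, a difference of -0.23 ± 0.19 in overlapping groups. That probe was above background on 4 of 8 arrays, and its difference was -0.08 without vehicle replicate 1 and -0.013 with array weights. Its brighter probe differed by -0.0041 ± 0.13. Psmg1 and Psmg3 differed by 0.04 ± 0.17 and -0.19 ± 0.17, the 3 probes of Psmd10 by -0.04 to 0.04, and neither Psmd5 probe was bright enough to be tested. Psmc3ip and Psme3ip1, which are no subunits, differed by 0.10 ± 0.26 for the first and by -0.07 ± 0.14 and -0.06 ± 0.16 for the probes of the second.

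Probes of the same gene share their target and are not replicates of a condition. Of the 45 symbols 18 had more than 1 probe, and 13 had at least 2 tested. The tested probes had the same sign in 9 of these genes and opposite signs in Psmb7, Psmc5, Psmd10 and Psmd7. In Psma3, Psmb2, Psmd2 and Psmd11 one probe was above background on all 8 arrays and another on none. Psmb2 had the widest gap between probes, 8.84 on the log2 scale. A gene at background on a single probe, as Psma1 and Psma6 were, is therefore not shown to be missing from the pull-down.

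Subunit probes deviated together on some arrays. Each probe was set against its own vehicle mean and the median over the 54 probes was taken per array. The medians were -0.03, -0.03, 0.13 and -0.21 on GnRH arrays 1 to 4 and -0.05, 0.21, -0.03 and -0.12 on vehicle arrays 1 to 4, so the groups overlapped. Over all tested probes the medians lay between -0.03 and 0.01. All arrays were set to the same quantiles, which leaves these all-probe medians little room to move. Within groups, pairs of probes correlated at a mean r of 0.16 over the 54 probes, 0.25 in the core, 0.36 in the base and 0.21 in the lid, against 0.0025 over all tested probes. These are descriptions over 8 shared arrays, and several pairs are probes of 1 gene. The shared quantiles also hold down the mean r over all tested probes. No other set of similar size and brightness was compared, so the values do not show that such deviations are particular to proteasome probes.

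By subcomplex, the lid medians were -0.18, -0.30, 0.07 and -0.29 on GnRH arrays 1 to 4 and -0.21, 0.24, 0.12 and 0.01 on vehicle arrays 1 to 4. GnRH arrays 1 and 3 lay within the vehicle range, and vehicle arrays 1 and 4 within the GnRH range. The base medians were -0.10, -0.0036, 0.18 and -0.26 with GnRH and -0.26, 0.30, 0.16 and -0.03 with vehicle, a spread about as wide in either group. For the core they were 0.08, -0.02, 0.13 and -0.11 with GnRH and 0.02, 0.23, -0.15 and -0.12 with vehicle. The lid median minus the core median was -0.27, -0.29, -0.06 and -0.18 with GnRH and -0.23, 0.01, 0.27 and 0.13 with vehicle. Vehicle array 1 fell among the GnRH arrays in this difference, and the other vehicle arrays were above them. The median change of the lid probes depended on single arrays. It was -0.32 without vehicle replicate 1, -0.27 without GnRH replicate 3, -0.24 without vehicle replicate 4 and -0.08 without vehicle replicate 2. With array weights it was -0.35. Scaling arrays to a common median gave -0.07 and no scaling gave -0.03, where the median of all tested probes moved to 0.07 and 0.11, so the lid median minus that median was -0.14 on either scale. Without vehicle replicate 1, 7 of 57 member probes had an unadjusted p below 0.05, where 10.1% of all tested probes did, and the lowest adjusted p among them was 0.297 (limma).

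**Figure D4:**
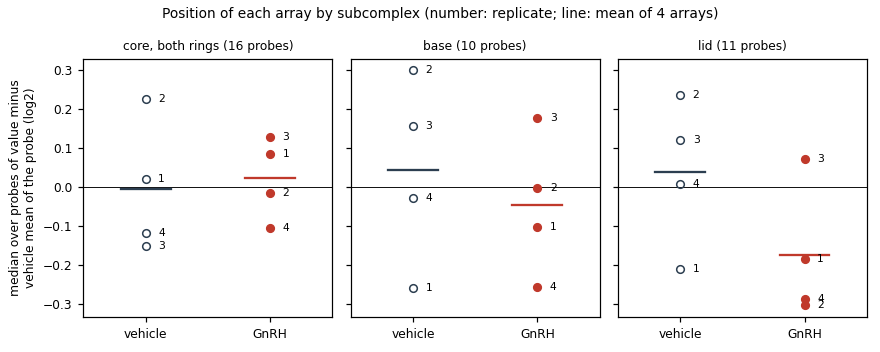
Median over the tested probes of each subcomplex of the normalized signal minus the vehicle mean of the probe (log2, vertical axis) on each vehicle (open) and GnRH (filled) array; numbers are replicates and lines the mean of 4 arrays. Groups overlap in all 3 panels. In the lid panel vehicle arrays 1 at -0.21 and 4 at 0.01 lie within the GnRH range, and GnRH arrays 1 at -0.18 and 3 at 0.07 within the vehicle range.

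Genes of the ubiquitin-proteasome pathway outside the symbol pattern were read from a list of 29 genes, of which 17 were on the array and 13, with 16 probes, were tested. None of the 16 probes passed the limma test in either direction, 8 were positive and 8 negative, and the median was 0.01. Nploc4, which with Vcp extracts ubiquitinated proteins, stood at 9.19 ± 0.08 with GnRH and 9.50 ± 0.10 with vehicle (SD, n = 4). Its groups did not overlap, and its unadjusted p was 0.0358 with a limma adjusted p of 1.00. Sem1, a small lid subunit whose symbol falls outside the pattern, differed by 0.20 ± 0.14, opposite in sign to the lid median, and Zfand2a, which binds the proteasome under arsenite stress, by 0.19 ± 0.15. Ubqln1, a shuttle for ubiquitinated proteins, differed by -0.14 ± 0.16 on a dim probe, above background on 7 arrays. Its brighter probe differed by -0.09 ± 0.13, and its other probes were too dim to be tested. Nfe2l1, the transcription factor that raises proteasome genes when the proteasome is inhibited, differed by 0.03 ± 0.20. Elavl1 itself differed by -0.25 ± 0.13 and did not pass the limma test (limma, unadjusted p = 0.0880). Its GnRH values all lay below its vehicle values, an order that 0.618% of all tested probes showed.

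Nfe2l1 acts through the antioxidant response element, so the promoters of the members were read for its core letters, TGACNNNGC, on both strands of the 250 bases before the gene start (RefSeq, GRCm38.p6). A promoter was found for 37 of the 43 subunit, activator and chaperone genes, with 40 promoters in all. The element was in 5 of the 40 (12.5%) and in 10.2% of the 32851 promoters of all genes, and the CCAAT box, letters CCAAT, was in 13 (32.5%) and 33.8%. The 60 bases around each match are shown because these are the members that hold the element, with its letters in capitals. All read 5′ to 3′ on the strand of the gene, and in Psmc6 and Psmd12 the element lies on the opposite strand. The stretches are at chr14:54618009-54618068 (minus strand) for Psmb5, chr11:70525297-70525356 (plus) for Psmb6, chr14:45329574-45329633 (plus) for Psmc6, chr11:107479278-107479337 (plus) for Psmd12 and chr5:123228130-123228189 (plus) for Psmd9.
Psmb5: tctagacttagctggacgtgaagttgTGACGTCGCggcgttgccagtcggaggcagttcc
Psmb6: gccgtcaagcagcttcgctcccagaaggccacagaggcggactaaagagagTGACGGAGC
Psmc6: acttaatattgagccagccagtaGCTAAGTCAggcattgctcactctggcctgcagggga
Psmd12: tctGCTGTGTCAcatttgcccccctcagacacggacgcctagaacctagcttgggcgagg
Psmd9: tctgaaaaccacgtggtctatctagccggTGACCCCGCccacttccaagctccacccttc
The matches began 47, 9, 227, 247 and 31 bases before the start of Psmb5, Psmb6, Psmc6, Psmd12 and Psmd9. The GnRH differences of these genes were 0.16 for Psmb5, -0.15 for Psmb6, -0.22 for Psmc6, -0.32 and -0.12 for Psmd12 and -0.23 and -0.0041 for Psmd9, none past the limma test. A match of letters is a description and not a binding site.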

How the data were processed

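There were 8 bead arrays, 4 per group. The authors deposited bead signal as a linear intensity, with no normalization visible in its values, and a detection p-value per probe, per the file headers. Their processed intensity table served as an alternative. Not given in the sources used here: scanner software and genome build. The neqc function (limma 3.58.1, R 4.3.3) corrected the background by normexp, added an offset of 16, set all arrays to the same quantiles and took log2, so differences in total yield are lost. Probes past the detection limit of 0.05 on at least 4 arrays (11318 of 25697) entered lmFit and eBayes with no block, and the Benjamini-Hochberg adjustment ran over all of them at 0.05. The fit was tested on simulated data. Platform symbols named 23978 probes, and all 45 member symbols matched the gene table.

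Members, role groups and lists were chosen with earlier results of these data known. Values per array are given for the 2 genes of lowest p in each role, the catalytic and inducible beta subunits, Psmd4, Psmd6 and Psmd14, and group values for the 4 related genes of lowest p. Nfe2l1 and the promoter motifs were added after the values were seen. The alternatives changed the background correction, scaling, filter, variance model, weights, replicate block, probes per gene and the arrays included. The number of arrays limits the precision.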

Additional observations from a re-analysis of the deposited data

Results flagged for a closer look

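For Psmb9, GnRH replicate 4 lay apart from the other GnRH arrays, at 6.285 on the log2 scale of normalized signal where the nearest was at 6.799 and the highest at 6.825. The vehicle values of the probe ran from 6.36 to 7.17. It was the 1 of 38 sets of 4 arrays in which a sample lay so far from the others, and chance flags about 1 in 20.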

How the results depend on the processing

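None of the proteasome probes and none of the related probes passed the limma test in either direction in any of the 18 alternatives run for these counts. The lowest adjusted p of a named member was 0.0784, with array weights, where 14 of 57 member probes and 21.3% of all tested probes had an unadjusted p below 0.05, in place of 1 and 2.91%. Over all tested probes the number higher was 30, and it was 14 with no filter on dim probes, 46 with array weights and 17 to 27 without 1 array (17 without vehicle replicate 3). The number lower was 0, and it was 4 with array weights and 0 to 1 without 1 array (1 without vehicle replicate 1). The median change of the alpha ring was 0.17 without between-array normalization and 0.21 with array weights, and that of the lid was -0.35 with array weights. Leaving out 1 array gave lid medians from -0.32 to -0.08, and other alternatives from -0.35 to -0.03. The median of all tested probes was 0.07 with median scaling and 0.11 without normalization. Of 337 named values 16 changed sign, none of them past the test. With median scaling and without normalization, Psmb2 was at 0.021 and 0.064, Psmb9 at 0.048 and 0.091 and Psmd4 at 0.093 and 0.14. Leaving out 1 array gave -0.17 to 0.10 for Psmb9, -0.15 to 0.10 for Psmd4, -0.022 to 0.19 for Psmb10, -0.26 to 0.0099 for Psmb6 and -0.014 to 0.20 for Psmd14. The cause was not tested. After the group mean of each tested probe was subtracted, the deviations of same-numbered arrays correlated at 0.72, -0.23, 0.26 and 0.65. Pairs with different numbers were not compared. Pairing by number is therefore unsettled, and the main comparison has no block. A replicate block gave 43 probes higher, 0 lower and 0 member probes, with the lid median at -0.15. Members near background, such as Psmb8 and Psme2, have differences limited by that background.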
